A study of Mus musculus and Acomys cahirinus with 16 samples.

Results

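Hair follicle stem cell genes were measured in untreated skin and in skin under chemical carcinogenesis of the laboratory mouse and of the African spiny mouse. The set was fixed by symbol and holds 10 genes, Krt15, Cd34, Lgr5, Lgr6, Lrig1, Sox9, Lhx2, Nfatc1, Tbx1 and Fgf18. All 10 were found among the 56980 genes of the mouse table and among the 19818 genes of the spiny mouse table, and all 10 passed the filter on low counts in both. Polyadenylated RNA was sequenced from 16 skin samples in 4 groups of 4, which were untreated Mus musculus skin, DMBA/TPA-treated Mus musculus skin, untreated Acomys cahirinus skin and DMBA/TPA-treated Acomys cahirinus skin. DMBA damages DNA and starts tumours, and TPA, a phorbol ester, drives the growth of the cells that DMBA has mutated. Strain, sex, age, dose, time after treatment, body site and whether a treated sample was tumour or other skin are not given in the sources used here. Nothing in the labels says that replicates came from separate animals, so p-values measure the spread between these samples only. Total counts ran from 19608787 to 30198281 per mouse sample and from 21143918 to 30561256 per spiny mouse sample. Untreated mouse replicate 2 stood apart from the other 3 untreated mouse samples in genes of growing hair. By mean log2 CPM it also stood apart in the lists of hyperplastic epidermis, sebaceous, adipocyte and fibroblast genes. On the leukocyte list it was the lowest untreated mouse sample. Changes of the members that rest on it are given with and without it, and changes of the other gene lists with it only.

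The hair follicle cycles through growth (anagen), regression and rest, and is rebuilt at each cycle by stem cells kept in a niche called the bulge and in the hair germ below it. Other stem cells sit higher up, in the isthmus and the junctional zone near the sebaceous gland. Bulge cells are kept quiet by BMP and FGF18 signals and are activated by Wnt signals, which the LGR receptors amplify when they bind R-spondins. In mouse skin, follicle stem cells are among the cells of origin proposed for the papillomas and carcinomas that DMBA/TPA treatment gives.

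Stretches upstream of the start were read from RefSeq for the members whose levels were lower after treatment in both species and that have an entry there, which were Fgf18, Lgr6 and Cd34. Each is the 250 bases before the RefSeq start in the mouse genome build GRCm38.p6, 5′ to 3′ on the gene's strand. They lie at chr11:33147401-33147650 on the minus strand for Fgf18, at chr1:135105277-135105526 on the minus strand for Lgr6 and at chr1:194938571-194938820 on the plus strand for Cd34. Capitals mark the letters of a motif match.
Fgf18: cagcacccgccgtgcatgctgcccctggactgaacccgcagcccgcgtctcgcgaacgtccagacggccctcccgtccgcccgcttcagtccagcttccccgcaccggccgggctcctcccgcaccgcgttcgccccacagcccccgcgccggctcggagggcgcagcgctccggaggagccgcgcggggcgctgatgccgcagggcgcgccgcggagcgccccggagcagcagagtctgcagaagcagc
Lgr6: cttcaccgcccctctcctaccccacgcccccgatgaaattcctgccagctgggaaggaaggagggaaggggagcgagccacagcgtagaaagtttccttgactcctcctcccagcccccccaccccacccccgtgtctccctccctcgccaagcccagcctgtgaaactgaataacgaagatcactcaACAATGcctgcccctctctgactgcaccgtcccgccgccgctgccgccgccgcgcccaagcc
Cd34: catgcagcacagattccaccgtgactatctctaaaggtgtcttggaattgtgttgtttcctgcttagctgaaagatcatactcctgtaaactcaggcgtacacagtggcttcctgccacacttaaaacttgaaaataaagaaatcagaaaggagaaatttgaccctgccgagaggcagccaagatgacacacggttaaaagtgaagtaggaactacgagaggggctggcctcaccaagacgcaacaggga
RefSeq windows of 300 bases (250 before to 50 after a start) were matched for 6 of the 10 members, 8 windows in all, and searched on both strands for 6 short motifs. These were the TPA response element TGAGTCA, the TCF/LEF core CTTTGA, the NFAT core GGAAAA, the LIM homeodomain core TAATTA, the SOX core ACAATG and the TATA box TATAAA, none of which overlapped in a match. Among the 8 windows of the members, the search matched ACAATG in Lgr6, at position -62 from the start. It also matched TTTTCC, the reverse complement of the NFAT core, in 1 window of Lhx2. Of 32851 windows in the mouse table, 5.2% held TGAGTCA, 16% CTTTGA, 23.4% GGAAAA, 5.29% TAATTA, 12.6% ACAATG and 13.6% TATAAA. The absence of a match says only that these letters are not in this window. The Fgf18 window was rich in G and C (78.7%, with 47 CG pairs), the Lgr6 window less so (67.7%, 24 CG pairs), and the Cd34 window was at 50% with 7 CG pairs, against a median of 52.7% over all windows.

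In mouse skin the 10 genes divided evenly with treatment. Krt15, Cd34, Lgr6, Nfatc1 and Fgf18 fell, and Sox9, Tbx1, Lgr5, Lhx2 and Lrig1 rose (edgeR quasi-likelihood test, Benjamini-Hochberg adjusted p under 0.05 over all genes tested). In spiny mouse skin 8 of the 10 fell, none rose, and Lgr5 and Sox9 did not pass the test. Over all 19740 mouse genes tested, 61.2% passed, 25.9% as rises and 35.3% as falls. Over all 14833 spiny mouse genes tested, 55.1% passed, 28.2% as rises and 26.9% as falls. Counts of called genes in the lists below are to be read beside these shares. The 2 groups of samples did not overlap for 9 members in mouse and 5 in spiny mouse, against 58.6% and 50.9% of all genes tested, so calls by themselves were common in both species. The median log2 fold change of the 10 genes was -0.29 in mouse, where that of all genes was -0.15, and -0.71 in spiny mouse, where that of all genes was -0.01. Without spiny mouse treated replicate 2 the count of members called in that species was 5 in place of 8, because Lrig1, Nfatc1 and Tbx1 no longer passed. In whole skin, fewer cells of a type and less RNA per cell cannot be told apart, which holds for every value below.

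**Figure D1:**
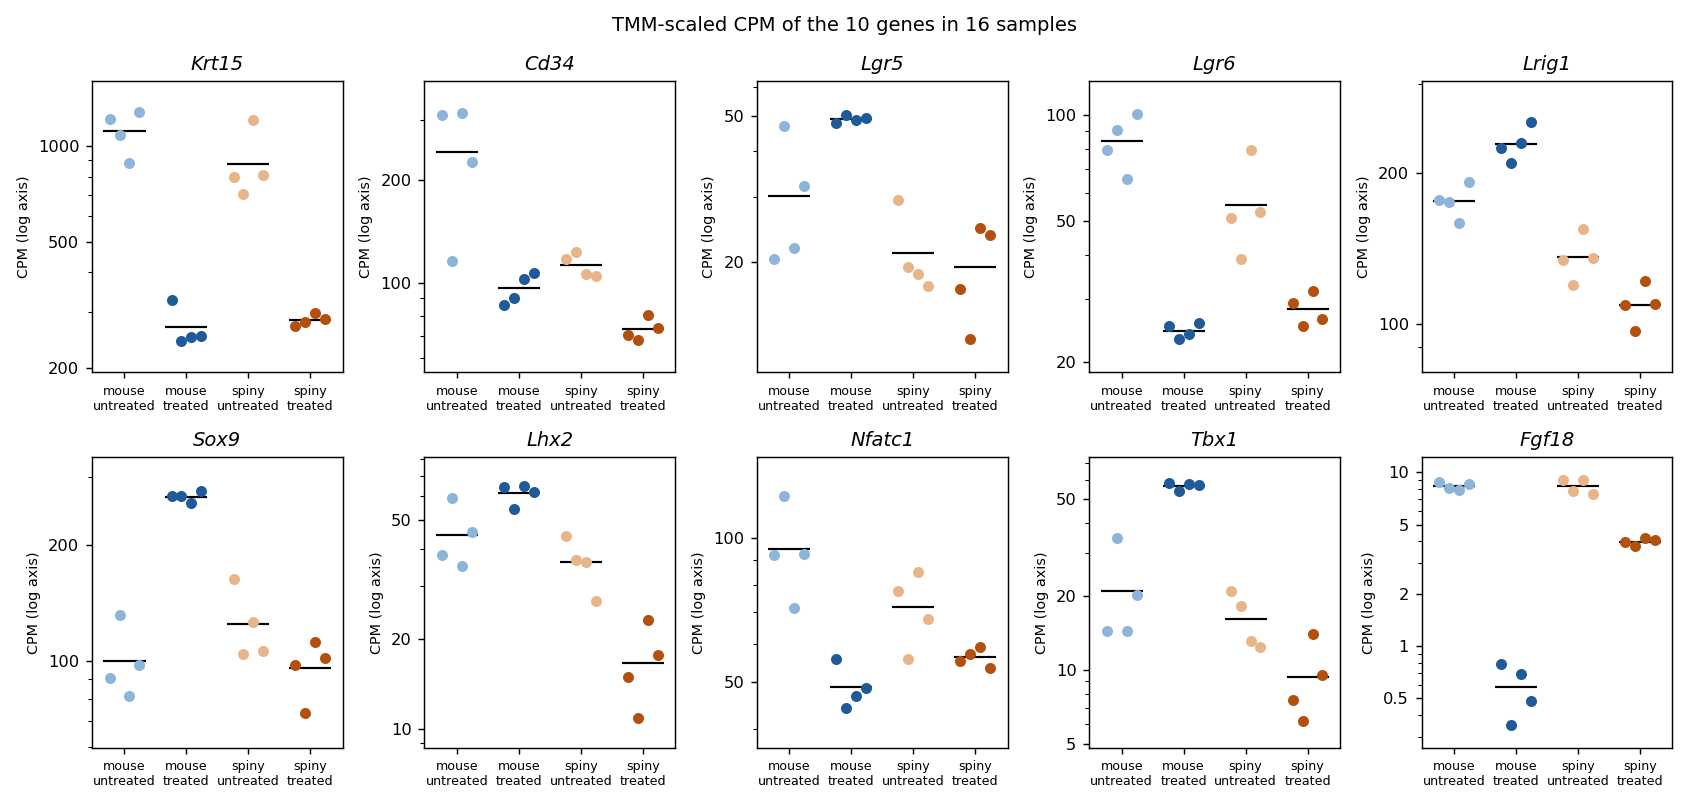
Levels of the 10 genes as TMM-scaled CPM (log axis) in each of the 16 samples, with points in the order of the replicate numbers and a line at the mean of each group of 4. Krt15, Lgr6 and Fgf18 are lower in every treated sample of a species than in every untreated one, while Tbx1 and Sox9 are higher in every treated mouse sample and not in the spiny mouse.

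Krt15 encodes a basal keratin that is a classic marker of bulge cells (GRCm39 chromosome 11, 100022584 to 100026754; AcoCah2 scaffold_9, 21222996 to 21227404). Levels are given in CPM, which are counts relative to the TMM-scaled size of the library, in the order of replicates 1 to 4. Krt15 was at 1214, 1080, 881.6 and 1281 CPM in untreated and at 327.7, 242.5, 250.6 and 252.1 CPM in treated mouse skin. It was at 797.7, 704.2, 1208 and 807.7 CPM in untreated and at 270.6, 279.8, 297.1 and 284.6 CPM in treated spiny mouse skin. All treated samples of both species lay between 242.5 and 327.7 CPM, below every untreated sample. The log2 fold change was -2.05 in mouse (SE 0.18, edgeR adjusted p 2.84e-05), a 4.15-fold lower level, and -1.64 in spiny mouse (SE 0.16, edgeR adjusted p 5.99e-05), a 3.11-fold lower level. The difference between the species was 0.42 on the log2 scale and did not pass the test (edgeR interaction, adjusted p 0.158); it passed without untreated spiny mouse replicate 3, the sample highest for Krt15 in its group, at 0.61 (adjusted p 0.0217), and in 2 of the 8 alternatives that kept all samples. Of the 7 genes of the basal keratinocyte list, 2 rose, 2 fell and 3 did not pass in mouse, and 5 rose, none fell and 2 did not pass in spiny mouse. Its 2 keratins, Krt5 and Krt14, named after their values were seen, rose by 0.82 and 2.16 on the log2 scale in mouse and by 0.95 and 1.78 in spiny mouse, while in mouse Col17a1 fell by 0.89 and Lamb3 fell by 0.38.

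Cd34 encodes a surface sialomucin that marks bulge cells in mouse, and is also made by vessel endothelium and by dermal fibroblasts (GRCm39 chromosome 1, 194621127 to 194643587; scaffold_5, 789118 to 808635). Untreated mouse samples were at 311, 116, 314.3 and 226.2 CPM, and treated ones at 86, 90.02, 102.5 and 106.8 CPM. Untreated spiny mouse samples were at 117.6, 123.1, 105.9 and 104.4 CPM, and treated ones at 70.15, 67.96, 80.44 and 73.75 CPM. The groups did not overlap in either species, but untreated mouse replicate 2 lay close to the treated samples. Cd34 fell by 1.33 on the log2 scale in mouse (SE 0.28, edgeR adjusted p 0.00303) and by 0.63 in spiny mouse (SE 0.08, edgeR adjusted p 0.000187). The difference of 0.70 did not pass the test (adjusted p 0.0705), and did so without untreated mouse replicate 2, at 0.84 (adjusted p 0.000278), and in 3 of the 8 alternatives that kept all samples. Of 7 endothelial genes, 4 fell in mouse and 2 in spiny mouse, where 35.3% and 26.9% of all genes tested fell. The summed level of the endothelial genes went from between 225.7 and 237.3 to between 156.6 and 194.1 CPM in mouse. In spiny mouse it went from between 275 and 334.2 to between 257.1 and 317.1 CPM. Of 7 fibroblast genes, 2 fell in mouse, and 4 fell and 1 rose in spiny mouse. Their summed level was between 7385 and 11937 CPM in untreated and between 5704 and 8377 CPM in treated mouse skin, and between 3786 and 6246 CPM in untreated and between 2018 and 2838 CPM in treated spiny mouse skin. No gene of these lists was at 0 in any sample, and their part in the change of Cd34 was not tested. In mouse, 148 bases or 2.03% of the exons of Cd34 overlap an antisense gene; with no strand option, fragments lying on both genes were not counted for either.

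Lgr5 and Lgr6 encode related receptors for R-spondins, which raise the response of a cell to Wnt. Lgr5 marks cycling cells of the lower bulge, hair germ and outer root sheath (GRCm39 chromosome 10, 115286216 to 115423685; scaffold_16, 81795726 to 81910643). Lgr6 marks cells of the isthmus and of the interfollicular epidermis (GRCm39 chromosome 1, 134911039 to 135033014; scaffold_5, 54924480 to 55050064). In untreated mouse skin Lgr5 was at 20.32, 46.75, 21.87 and 32.25 CPM, and in treated mouse skin at 47.83, 50.37, 48.81 and 49.34 CPM. Untreated replicate 2 nearly reached the treated samples, which were close to each other. Lgr5 rose by 0.70 on the log2 scale in mouse (SE 0.24, edgeR adjusted p 0.029), and by 1.08 without untreated replicate 2 (adjusted p 5.07e-05). Its call was lost without untreated replicate 1 (adjusted p 0.0543), untreated replicate 3 (adjusted p 0.0681) or treated replicate 2 (adjusted p 0.051). In spiny mouse skin Lgr5 was at 29.53, 19.32, 18.52 and 17.23 CPM untreated and at 16.88, 12.36, 24.67 and 23.67 CPM treated. These groups overlapped. The log2 fold change of -0.13 did not pass the test (SE 0.24, edgeR adjusted p 0.678), and it was 0.07 without untreated replicate 1 and 0.05 without treated replicate 2. The species difference for Lgr5 was -0.82 and did not pass (edgeR adjusted p 0.075); without untreated mouse replicate 2 it was -1.20 and passed (adjusted p 0.0047), as it did in 4 of the 8 alternatives that kept all samples.

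Lgr6 went the other way from Lgr5 in mouse. It was at 79.55, 90.25, 65.76 and 100.5 CPM in untreated and at 25.15, 23.12, 23.97 and 25.69 CPM in treated mouse skin. In spiny mouse skin it was at 51, 39.07, 79.27 and 53.11 CPM untreated and at 29.3, 25.15, 31.73 and 26.41 CPM treated. Every treated sample was below every untreated sample of its species, and untreated mouse replicate 2 was not near the treated samples. Lgr6 fell by 1.78 on the log2 scale in mouse (SE 0.13, edgeR adjusted p 1.43e-05) and by 0.98 in spiny mouse (SE 0.19, edgeR adjusted p 0.00225). The fall was larger in mouse by 0.80 on the log2 scale (edgeR interaction, adjusted p 0.0146), a call lost without treated mouse replicate 2 (0.68, adjusted p 0.0533) and with scaling to the basal keratinocyte list (0.38, adjusted p 0.139). On the scale of CPM per kilobase of gene length, the ratio of Lgr5 to Lgr6 within a sample, which no library scaling affects, was between 0.17 and 0.346 in untreated mouse skin and between 1.27 and 1.45 in treated mouse skin. Thus Lgr6 was the higher of the pair in every untreated mouse sample and Lgr5 in every treated one. In spiny mouse skin the ratio ran from 0.327 to 0.811 untreated and from 0.689 to 1.26 treated, and these ranges overlapped. The ratio was chosen after the values were seen and is given as a description.

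Lrig1 encodes a transmembrane protein that restrains the EGF receptor and marks stem cells of the junctional zone (GRCm39 chromosome 6, 94581510 to 94677139; scaffold_4, 49123903 to 49227339). Mouse samples were at 176.9, 174.9, 158.5 and 191.8 CPM untreated and at 223.8, 208.8, 229.7 and 252.5 CPM treated. In spiny mouse the levels were 133.8, 119.7, 154.8 and 135.4 CPM untreated and 109, 96.72, 121.6 and 109.6 CPM treated. The mouse groups did not overlap and the spiny mouse groups did, narrowly. Lrig1 rose by 0.38 in mouse (log2, SE 0.11, edgeR adjusted p 0.0155) and fell by 0.32 in spiny mouse (SE 0.09, edgeR adjusted p 0.0179), the latter call being lost without treated spiny mouse replicate 2 (adjusted p 0.0534). The species difference of -0.70 passed the test (edgeR adjusted p 0.000821) and kept its call in all 16 fits that left out 1 sample. Of the exon bases of Lrig1, 2.58% in mouse and 0.925% in spiny mouse overlap Slc25a26 on the opposite strand.

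The 3 smallest rises in mouse depended on the scaling of the libraries. With upper-quartile factors, library size alone or scaling to the basal keratinocyte list, which lowered the median log2 fold change of all mouse genes by between 0.205 and 0.304, the rises of Lgr5, Lhx2 and Lrig1 did not pass the test. The log2 fold changes then stood between 0.40 and 0.47 for Lgr5, between 0.16 and 0.24 for Lhx2 and between 0.09 and 0.18 for Lrig1. No mouse member changed sign under any alternative run.

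Sox9 encodes an HMG-box transcription factor of bulge and outer root sheath cells (GRCm39 chromosome 11, 112673050 to 112678586; scaffold_9, 8957447 to 8962794). It was at 90.46, 132.2, 81.47 and 97.94 CPM in untreated and at 268.1, 267.5, 256.4 and 275.5 CPM in treated mouse skin. In spiny mouse it was at 163.1, 104.2, 126.8 and 106.3 CPM untreated and at 97.8, 73.46, 112.2 and 102.2 CPM treated. Every treated mouse sample had more Sox9 than any untreated one, and the spiny mouse groups overlapped. Sox9 rose 2.66-fold in mouse (log2 1.41, SE 0.16, edgeR adjusted p 9.39e-05), and its log2 fold change in spiny mouse was -0.38 (SE 0.17, edgeR adjusted p 0.0825). The spiny mouse value passed with DESeq2 (adjusted p 0.046) and, at -1.09, with scaling to the basal keratinocyte list (adjusted p 0.0002). The difference of -1.79 passed the test (edgeR adjusted p 2.87e-05).

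Tbx1 encodes a T-box transcription factor needed for the long-term renewal of bulge cells (GRCm39 chromosome 16, 18399729 to 18409421; scaffold_4, 77089421 to 77099289). Untreated mouse samples were at 14.37, 34.69, 14.47 and 20.23 CPM, and treated ones at 57.91, 53.98, 57.54 and 57.06 CPM. Untreated spiny mouse samples were at 20.99, 18.2, 13.17 and 12.43 CPM, and treated ones at 7.55, 6.18, 14.05 and 9.5 CPM. Replicate 2 was the highest untreated mouse sample, and treated spiny mouse replicate 3 was above 2 of the untreated ones. Tbx1 rose 2.71-fold in mouse (log2 1.44, SE 0.26, edgeR adjusted p 0.00143) and fell by 0.80 on the log2 scale in spiny mouse (SE 0.26, edgeR adjusted p 0.0285). The spiny mouse call was lost without untreated replicate 1 or 2 or treated replicate 1, 2 or 4 (adjusted p from 0.0606 to 0.0747). The difference of -2.23 was the largest negative one among the members (edgeR adjusted p 0.000337) and kept its call in all 16 fits that left out 1 sample.

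Lhx2 encodes a LIM homeodomain factor that organises the bulge (GRCm39 chromosome 2, 38229293 to 38259745; scaffold_10, 45097965 to 45129393). It was at 38.15, 59.34, 35.13 and 45.6 CPM in untreated and at 64.48, 54.33, 64.63 and 61.78 CPM in treated mouse skin. In spiny mouse it was at 44.3, 36.73, 36.25 and 26.83 CPM untreated and at 14.97, 10.9, 23.09 and 17.68 CPM treated. In mouse the groups overlapped through untreated replicate 2, and in spiny mouse they did not overlap. Lhx2 rose by 0.46 on the log2 scale in mouse (SE 0.16, edgeR adjusted p 0.0315), a call lost without untreated replicate 1, 3 or 4 or treated replicate 1 or 3 (adjusted p from 0.0528 to 0.0695); without untreated replicate 2 the rise was 0.72 (adjusted p 0.000108). In spiny mouse it fell by 1.11 (SE 0.22, edgeR adjusted p 0.00264). The species difference was -1.57 (edgeR adjusted p 0.000481).

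Nfatc1 encodes a calcineurin-dependent factor that keeps bulge cells quiescent. Its levels were 92.33, 122.4, 71.62 and 92.79 CPM in untreated and 55.97, 44.17, 46.92 and 48.56 CPM in treated mouse skin. Spiny mouse levels were 77.67, 56.04, 85.23 and 67.97 CPM untreated and 55.36, 57.42, 59.21 and 53.51 CPM treated. The mouse groups did not overlap, and untreated spiny mouse replicate 2 lay among the treated samples of its species. Nfatc1 fell by 0.95 on the log2 scale in mouse (SE 0.16, edgeR adjusted p 0.000877) and by 0.35 in spiny mouse (SE 0.12, edgeR adjusted p 0.031). The spiny mouse call was lost without untreated replicate 1 or 3 or treated replicate 1, 2 or 4 (adjusted p from 0.0612 to 0.0826). The species difference of 0.61 passed (edgeR adjusted p 0.0245), and did not without mouse untreated replicate 2 (0.37, adjusted p 0.0873), mouse treated replicate 2 (0.48, adjusted p 0.111) or mouse treated replicate 3 (0.56, adjusted p 0.0514). It also did not pass with DESeq2 (0.51, adjusted p 0.058), with the size factors of DESeq2 (0.51, adjusted p 0.0691), without the filter on low counts (0.47, adjusted p 0.0767) or with scaling to the basal keratinocyte list (0.20, adjusted p 0.416), 4 of the 8 alternatives that kept all samples.

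Fgf18 encodes a secreted factor that bulge cells make and that holds the follicle in its resting phase (GRCm39 chromosome 11, 33067430 to 33097400; scaffold_14, 64883512 to 64915029). It was at 8.75, 8.16, 7.88 and 8.52 CPM in untreated mouse skin, and at 0.788, 0.352, 0.691 and 0.483 CPM in treated mouse skin, where these levels rest on 15, 8, 19 and 13 counts. In spiny mouse it was at 9.08, 7.85, 9.02 and 7.54 CPM untreated and at 3.96, 3.75, 4.17 and 4.07 CPM treated. Untreated samples of both species lay between 7.54 and 9.08 CPM, but the gene models differ in length. Per kilobase of gene length, untreated samples lay between 6.63 and 7.37 CPM in mouse and between 4.83 and 5.82 CPM in spiny mouse. Treated samples held little Fgf18 in mouse and a larger part of the untreated level in spiny mouse. Fgf18 was 14.4-fold lower in treated mouse skin (log2 -3.85, SE 0.24, edgeR adjusted p 7.41e-06) and 2.10-fold lower in treated spiny mouse skin (log2 -1.07, SE 0.11, edgeR adjusted p 7.83e-05). This gave the largest species difference of the set, 2.78 on the log2 scale (edgeR adjusted p 4.36e-07), which kept its call in every alternative run.

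**Figure D2:**
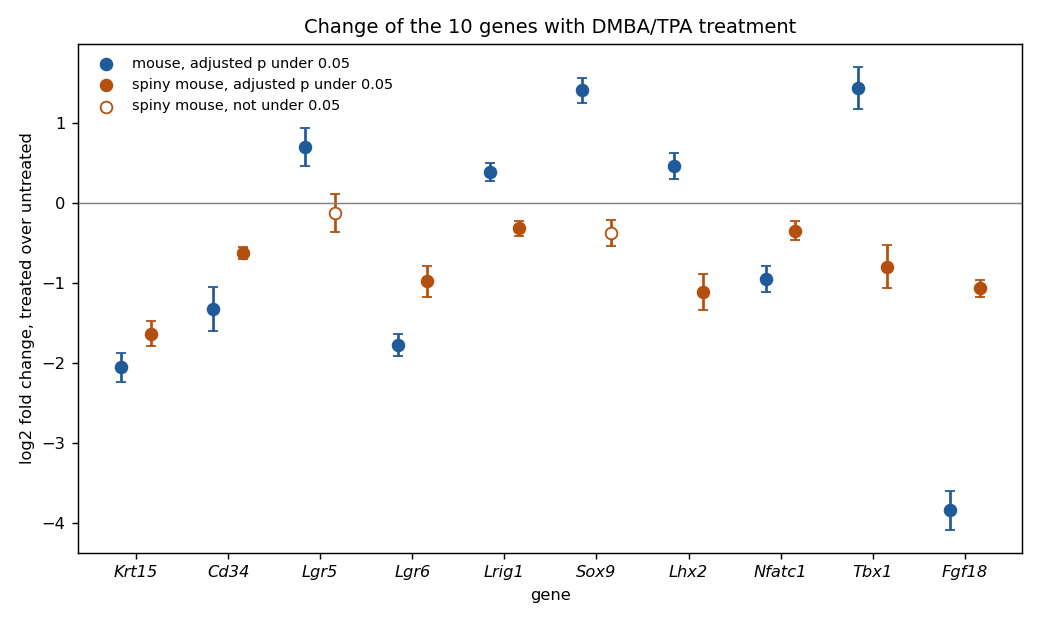
Log2 fold change, treated over untreated, of the 10 genes in mouse and spiny mouse; bars are standard errors from the edgeR fit with 4 samples per group, and open points had an adjusted p that was not under 0.05. Mouse points stand on both sides of 0, from -3.85 for Fgf18 to 1.44 for Tbx1, while all spiny mouse points stand below 0.

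In all, the treatment effect differed between the species for 7 of the 10 members, by the species by treatment interaction over 13656 shared genes, of which 46.1% passed. For Lgr6, Nfatc1 and Fgf18 the difference was positive, a smaller fall in spiny mouse (21.4% of all genes were called in that direction). For Sox9, Tbx1, Lhx2 and Lrig1 it was negative (24.7% of all genes). These 4 genes went up in mouse, and of them Tbx1, Lhx2 and Lrig1 went down in spiny mouse.

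Genes of the growing hair moved with part of the set. The anagen list held 14 genes of hair matrix, inner root sheath and hair shaft, and 12 of the 13 tested rose in mouse, while 7 of the 12 tested fell and none rose in spiny mouse. The median log2 fold change of the list was 4.33 in mouse and -2.39 in spiny mouse. As the mean log2 CPM of the list per sample, untreated mouse replicates 1 to 4 were at 0.233, 6.28, 1.74 and 0.203, and all treated mouse samples were between 8.75 and 8.76. The summed level of the list was 46.9, 2602, 69.9 and 49.6 CPM in the untreated mouse samples and from 22012 to 23920 CPM in the treated ones, and Krt85 was at 0 in untreated replicates 1 and 4. In spiny mouse the list stood at 7.74, 7.98, 5.04 and 6.54 untreated and at 3.44, 3.19, 5.95 and 4.96 treated, with summed levels from 1184 to 11612 CPM and from 237.8 to 3383 CPM. Untreated mouse replicate 2 thus carried far more growing-hair RNA than the other untreated mouse samples, and the spiny mouse groups overlapped on this list.

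The members did not all follow untreated mouse replicate 2. On the log2 CPM scale that sample stood 93.1% of the way from the mean of the other 3 untreated samples to the treated mean for Lgr5 and for Lhx2, 82.4% for Cd34, 61.0% for Tbx1 and 35.6% for Sox9. For Krt15 it stood at 1.99%, for Fgf18 at 0.966%, for Lrig1 at -0.836%, for Lgr6 at -9.35% and for Nfatc1 at -65.5%, so these were at the untreated level or beyond it on the far side from the treated samples. Among treated spiny mouse samples, replicates 3 and 4 had the most growing-hair RNA and were also the 2 highest samples for 8 of the 10 members, all but Lgr6 and Nfatc1. Untreated spiny mouse samples did not show this for most members. There replicates 1 and 2 had the most growing-hair RNA, and were the 2 highest samples for Lgr5, Cd34, Lhx2 and Tbx1 alone. Replicate 3, the lowest of that group for growing-hair RNA, was the highest for Krt15, Lgr6, Nfatc1 and Lrig1. These comparisons were added after the values were seen and are descriptions. The part of the hair cycle in any member's change was not tested. Without untreated mouse replicate 2 all 10 members were still called in mouse, in the same directions, and 8 were called in the species difference. The mouse log2 fold change was then 1.88 for Tbx1, 1.66 for Sox9, -1.47 for Cd34 and -0.72 for Nfatc1.

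**Figure D3:**
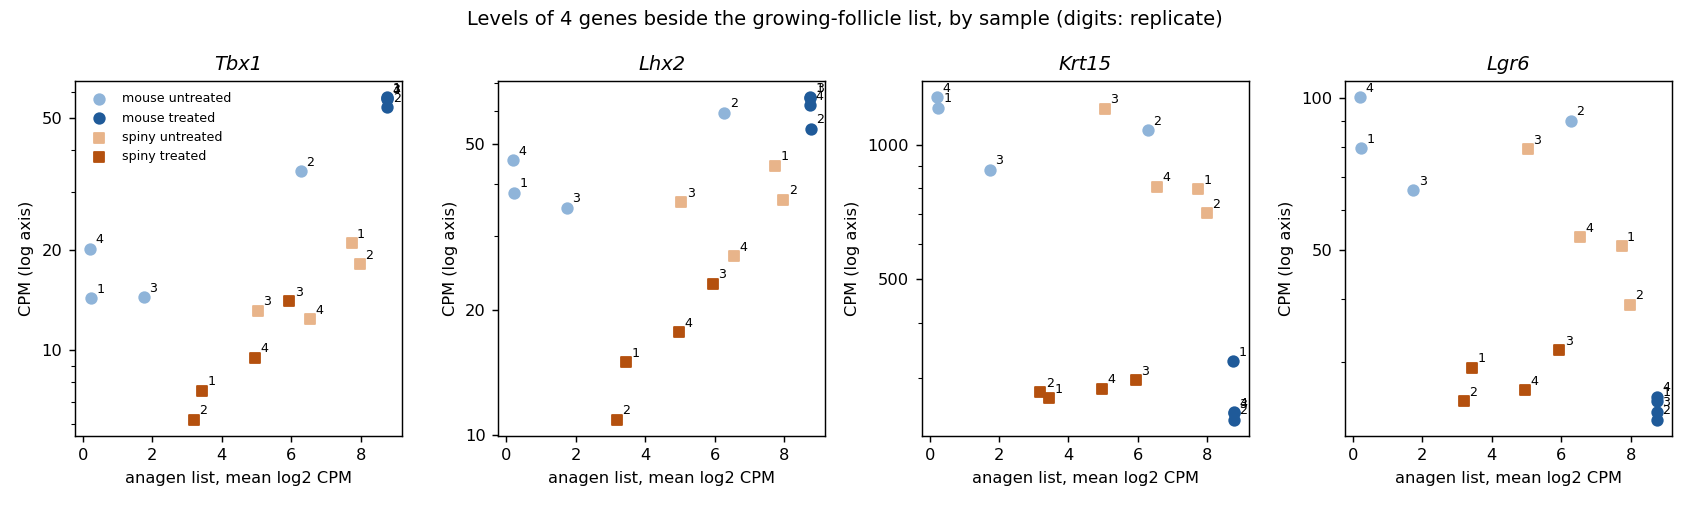
Level of Tbx1, Lhx2, Krt15 and Lgr6 (CPM, log axis) against the mean log2 CPM of the anagen list in each of the 16 samples; digits are replicate numbers. Untreated mouse replicate 2, at 6.28 on the horizontal axis, lies near the treated mouse samples for Lhx2 and partway for Tbx1, and with the untreated ones for Krt15 and Lgr6.

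Other genes used as markers or regulators of follicle stem cells, 18 in a list made with earlier results of these data known, also differed between the species. In mouse 12 rose, 2 fell and 4 did not pass, where 25.9% of all genes tested rose and 35.3% fell. In spiny mouse 1 rose, 10 fell and 7 did not pass, where 28.2% of all genes tested rose and 26.9% fell. The list's median log2 fold change was 0.69 in mouse and -0.49 in spiny mouse, and 11 of the 18 differed negatively between the species and 1 positively. Cxcl14, a chemokine made by keratinocytes, went from 78.7 ± 4.45 to 328 ± 76.7 CPM in mouse (SD, n = 4) and from 295 ± 40.8 to 103 ± 15.5 CPM in spiny mouse. Its log2 fold changes were 2.06 and -1.52 (edgeR adjusted p 2.12e-05 and 3.63e-05). Gli1, a transcription factor and target of Hedgehog signalling, rose by 1.07 in mouse with overlapping groups (edgeR adjusted p 0.0292) and fell by 1.68 in spiny mouse (edgeR adjusted p 9.07e-05). Sfrp1, a secreted Wnt inhibitor, was the 1 gene of the list that rose in both species, by 1.33 in mouse and 0.99 in spiny mouse. Krt24, a keratin found in bulge cells, fell in both, from 13.3 ± 1.88 to 0.739 ± 0.437 CPM in mouse and from 7.10 ± 0.663 to 3.15 ± 2.06 CPM in spiny mouse (SD, n = 4). Wif1, a Wnt inhibitor, and Plet1, a marker of the upper isthmus, rose by 1.58 and 1.54 in mouse, and had log2 fold changes of -0.08 and -0.10 in spiny mouse that did not pass (edgeR adjusted p 0.692 and 0.795).

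Of 7 partners of the LGR receptors (R-spondins, the third receptor and ubiquitin ligases), 3 rose and 1 fell in mouse, while 1 rose and 5 fell in spiny mouse. Among all genes tested, 25.9% rose and 35.3% fell in mouse, and 28.2% rose and 26.9% fell in spiny mouse. Rspo3, a ligand, fell by 1.73 in mouse and fell by 1.12 in spiny mouse (edgeR adjusted p 5.86e-05 and 0.00654). Rspo4, another ligand, rose in both, by 2.55 and 0.73 (edgeR adjusted p 0.000123 and 0.000237). Rspo2 fell by 2.31 in spiny mouse at a low level, from 0.667 ± 0.0809 to 0.132 ± 0.0766 CPM (SD, n = 4). Lgr4, the third receptor of the family, rose by 0.48 in mouse and fell by 0.64 in spiny mouse (edgeR adjusted p 0.00255 and 0.000298). Znrf3, a ubiquitin ligase that removes Wnt receptors and that R-spondin with an LGR receptor inhibits, rose by 0.42 in mouse (edgeR adjusted p 0.0195) and fell by 0.38 in spiny mouse (edgeR adjusted p 0.0013).

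FGF and BMP genes of the niche, 16 in the list, gave 7 rises and 5 falls in mouse and 1 rise and 8 falls in spiny mouse. The shares of rises and falls over all genes tested were 25.9% and 35.3% in mouse and 28.2% and 26.9% in spiny mouse. Fgf5, the signal that ends hair growth, went from 1.03 ± 1.24 to 16.7 ± 2.30 CPM in mouse (log2 4.03, edgeR adjusted p 0.000498). Its untreated mouse median was 0.429 CPM and its highest untreated mouse sample was at 2.89 CPM. Its spiny mouse levels were 5.34 ± 4.07 and 1.37 ± 1.57 CPM and did not pass (edgeR adjusted p 0.067). Fgf22 rose by 2.27 in mouse (edgeR adjusted p 5.70e-06) and fell by 0.87 in spiny mouse (edgeR adjusted p 0.00105). Nog and Fst, secreted antagonists of BMP and activin signals, fell by 1.67 and 1.17 in mouse (edgeR adjusted p 0.000842 and 0.000353). In spiny mouse the largest falls called were those of Fgf10 (1.86), Bmp4 (1.31), Bmp2 (1.18) and Bmp6 (0.97). Bmp2 and Bmp4 had risen in mouse, by 0.98 and 0.45, so that these BMP ligands, like Fgf22, moved in opposite directions in the 2 species.

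**Figure D4:**
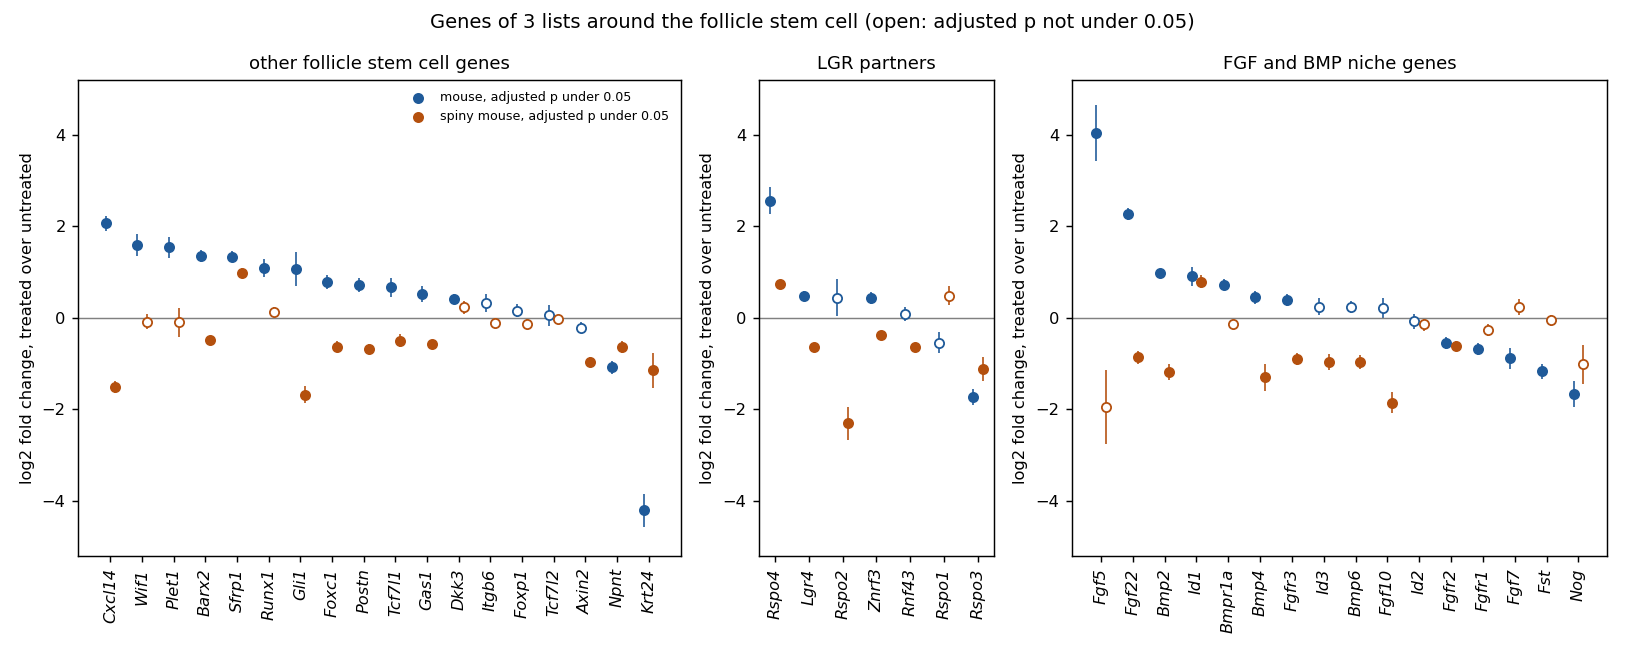
Log2 fold change, treated over untreated, with standard errors, for the genes of 3 lists around the follicle stem cell, ordered by their value in mouse; open points had an adjusted p that was not under 0.05. In the first list 12 genes are called above 0 in mouse and 1 in spiny mouse, and in the list of FGF and BMP genes 7 and 1.

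Keratinocyte lists also changed. All 6 genes of hyperplastic epidermis tested in mouse rose and so did all 5 tested in spiny mouse, with summed levels from 673.5 to 1759 CPM untreated and from 14203 to 19942 CPM treated in mouse, and from 1276 to 2254 CPM and from 8575 to 9985 CPM in spiny mouse. Scaled to the basal keratinocyte list in place of TMM factors, all 10 members were called lower in spiny mouse, a scaling that lowered the median log2 fold change of all spiny mouse genes by 0.73. Of 7 sebaceous genes, 4 fell in mouse and 2 in spiny mouse, and of 5 adipocyte genes 3 fell in each. In mouse the groups overlapped for every gene of these 2 lists. Summed over the adipocyte list, untreated mouse replicate 2 was at 108.9 CPM. The other untreated mouse samples lay between 419.6 and 596.6 CPM, and treated ones between 87.47 and 224.7. On the sebaceous list that replicate was at 653.3 CPM, other untreated ones between 1221 and 1401, treated ones between 726.7 and 922.9. Muscle genes fell, 6 of 6 tested in mouse and 5 of 5 in spiny mouse. Among leukocyte genes, 2 of 4 tested fell in mouse and 2 of 4 rose in spiny mouse. The part of these cell types in the members' values was not tested.

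The members differed widely in level. Per kilobase of gene length, which allows genes to be set side by side, Krt15 was the highest in all 4 groups, at 631 ± 99.8 CPM per kilobase in untreated and 152 ± 22.6 in treated mouse skin and at 503 ± 128 and 162 ± 6.29 in spiny mouse skin (SD, n = 4). In untreated mouse skin it was followed by Cd34 (33.2 ± 12.8), Lrig1 (31.4 ± 2.44) and Sox9 (24.3 ± 5.36), whose ranges overlapped from neighbour to neighbour. Then came Nfatc1, Lgr6 and Lhx2, between 10.1 and 12.7 and also overlapping, and last Fgf18 (7.01 ± 0.326), Tbx1 (5.95 ± 2.72) and Lgr5 (2.95 ± 1.19). In treated mouse skin the order was Krt15, Sox9 (64.5 ± 1.91), Lrig1 (41.0 ± 3.25), Tbx1 (16.1 ± 0.511), Lhx2, Cd34, Nfatc1, Lgr5, Lgr6 and Fgf18 (0.487 ± 0.166), and of these neighbours Lhx2 and Cd34 alone overlapped. In untreated spiny mouse skin Cd34 (41.2 ± 3.32) and Sox9 (31.3 ± 6.84) followed Krt15 and overlapped. Lrig1, Lhx2, Nfatc1 and Lgr6, between 8.68 and 9.82, overlapped in turn, as did Fgf18, Tbx1 and Lgr5, between 4.63 and 5.37. In treated spiny mouse skin the order was Krt15, Cd34, Sox9, Lrig1, Nfatc1, Lhx2, Lgr6, Lgr5, Tbx1 and Fgf18, with Krt15, Sox9 and Nfatc1 separate from the gene after them. Gene models differ between the tables, so levels were not tested between species. Lrig1 spans 5585 exon bases in mouse and 13838 in spiny mouse, Lgr5 10264 and 4571, and Cd34 7290 and 2738. The order of genes within a group depends on these lengths too and was not tested.

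Likeness to a member was measured as Pearson's r of log2 CPM over the 16 samples after centring each species on its own mean, among 9776 shared genes, as a description with no test. Treated and untreated samples both enter, so genes that separate the same groups score high. The gene most like Krt15 was Cttnbp2 (0.983), for Cd34 it was Gsn (0.968), for Lgr5 Fzd3 (0.949) and for Lgr6 Ppara (0.988). For the transcription factors it was Lamb1 for Sox9 (0.974), Afap1l2 for Lhx2 (0.950), Plekhn1 for Nfatc1 (0.973) and Samd5 for Tbx1 (0.980). The second gene for Tbx1 was Msx2 (0.977), a member of the anagen list, and Tbx1 itself was the third gene for Lgr5 (0.885). For Lrig1 the most like gene was Sh3tc2 (0.958) and for Fgf18 Ppp2r3a (0.979).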

How the data were processed

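The authors deposited raw fragment counts per gene in 2 tables, 1 per species, made per the file headers with featureCounts 2.0.3 on read pairs, without a strand option and without fragments that map to several places or genes. Per the file headers the mouse table uses Ensembl 108. Trim Galore, HISAT2 and the build GRCm39 are named in the submitters' processing notes, with no versions. Gene lengths are those of the deposited tables. Mouse symbols came from the GENCODE annotation of GRCm39 (744 identifiers had none). Columns of untreated samples have a code in place of the library name and were matched on the letter of the species and the number of the replicate; that of untreated mouse replicate 2 has a further suffix of unstated meaning. The series' design text is about irradiated fibroblasts; the sample labels, which describe skin, were followed.

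Low-count genes were removed by filterByExpr and libraries were scaled by TMM. The test was edgeR's quasi-likelihood test (edgeR 4.0.16, R 4.3.3) of treated over untreated within each species, with Benjamini-Hochberg adjustment over all genes tested and a threshold of 0.05. The species difference is the interaction over symbols that both tables hold once (spiny mouse minus mouse). List scores are mean log2 CPM with a prior count of 2. The scripts were tested on simulated data. Alternatives were DESeq2 1.42.0, limma 3.58.1 (voom with sample weights), other scalings, no low-count filter, the replicate block and leaving out each sample. Replicate pairs (24) were compared by a chi-square test over genes with at least 20 counts, which gave between 11.35 and 165.8 per degree of freedom, so none agreed within sampling noise. The floor of 3 counts lies between 0.0982 and 0.153 CPM and covers counting error only. Members and lists were chosen with earlier results of these data known. Named were all 10 members, at most the 4 largest called changes of each pathway list in each species, and the top 3 genes by likeness; other names were chosen after their values were seen, as were the untreated replicate 2 and ratio descriptions.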

Additional observations from a re-analysis of the deposited data

Results flagged for a closer look

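In 40 sets of 4 samples (10 genes in 4 groups), 2 held a sample that lay far from the other 3 by Dixon's criterion, and chance flags about 1 set in 20. Treated mouse replicate 1 stood at 327.7 CPM for Krt15, above the other 3 treated mouse samples. Untreated spiny mouse replicate 1 stood at 29.53 CPM for Lgr5, above the other 3 of its group.

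By the edgeR interaction test, the treatment effect differed between the species for 7 of the 10 genes, against 46.1% of 13656 shared genes. Differences are the spiny mouse log2 fold change minus the mouse one. The difference was 2.776 for Fgf18, 0.7959 for Lgr6 and 0.6069 for Nfatc1, each of which fell less in spiny mouse. It was -2.234 for Tbx1, -1.785 for Sox9, -1.574 for Lhx2 and -0.6972 for Lrig1, all 4 of which rose in mouse. The Nfatc1 call held in 13 of 16 fits that left out 1 sample and in 4 of 8 alternatives that kept all samples. That of Lgr6 held in 15 of 16 and in 7 of 8.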

How the results depend on the processing

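Over 560 recomputed values of single members, 505 stayed on their side of the threshold, 39 lost the call and 16 gained one. No called value changed sign; Lgr5 in spiny mouse, which was not called, went from -0.13 to 0.07 without untreated replicate 1 and 0.05 without treated replicate 2. Leaving out 1 sample, the members called ran from 8 to 10 in mouse, from 5 to 8 in spiny mouse (5 without treated replicate 2) and from 5 to 8 in the species difference. By scaling, the share of rises among called genes was 42.4% in mouse with TMM factors, 30.5% with upper quartiles, 28.6% with the library size and 23.6% with the basal keratinocyte list. For spiny mouse it was 51.1% with TMM factors and 6.34% with the basal list, and for the species difference the positive share was 46.4% with TMM factors, 61.2%, 66.2% and 16.9% with the other 3. The causes were not tested. Depth limits treated mouse Fgf18, which had 8 to 19 counts a sample.

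Replicate numbers recur in every group. The correlation of the deviations that samples of 1 number had from their groups lay between -0.00799 and 0.0229 in mouse and between -0.526 and -0.195 in spiny mouse, so the numbers were not taken to pair samples. With the replicate block 11246 mouse genes, 7418 spiny mouse genes and 5723 species differences were called, against 12085, 8180 and 6290 without it. Members called were 9, 8 and 7 with the block: the calls of Lhx2 in mouse (0.49, adjusted p 0.0527) and Tbx1 in spiny mouse (-0.83, adjusted p 0.0679) did not pass, and that of Sox9 in spiny mouse did (-0.37, adjusted p 0.0489).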
